A study of Mus musculus with 24 samples.

Results

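Genes of sterol synthesis, uptake and efflux were followed through RNA-seq libraries of mouse marrow-derived mesenchymal stem cells, stromal cells that can form bone-making osteoblasts and fat-storing adipocytes. The members are 30 listed genes of cholesterol synthesis, its sensing, intracellular sterol transport, storage and efflux. They were taken by symbol, with all rows of a symbol summed, and 29 of the 25385 genes measured were members. Hmgcs1, the synthase that feeds the mevalonate route, was not analysed here. The 24 libraries formed 8 groups of 3. Cells were undifferentiated (day 0), kept for 7 or 15 days in osteogenic medium (10 mM β-glycerophosphate, 50 µg/mL ascorbic acid) or kept for 7 days in adipogenic medium (dexamethasone at 0.1 µM with 50 µM of indomethacin and insulin at 5 µg/mL). Each state was harvested after 24 hours with either ethanol vehicle or 100 nM 1,25(OH)2D3 (VD3), the hormonal form of vitamin D and ligand of the receptor Vdr. All groups shared a base medium with 10% serum and cells of at most 10 passages, with no genetic change named in the labels.

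Cholesterol is built from acetyl-CoA through mevalonate and squalene, by enzymes whose genes are switched on together by the transcription factor SREBP-2. When sterols are plentiful, the Insig proteins hold the SREBP escort Scap in the endoplasmic reticulum and the route is turned down. Insig1 is itself an SREBP target, whereas Insig2 is not. Excess sterol is esterified by Soat1 or exported by Abca1 and Abcg1, which are targets of the oxysterol receptors LXRα (Nr1h3) and LXRβ (Nr1h2).

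Values are RPKM (reads per kilobase of transcript, scaled to library size) as mean ± SD of 3 libraries. RPKM is scaled to length, so levels can be set side by side between genes, with 1 limit. How reads were shared between rows of a symbol is not given. Sums of the 6 members with several rows may therefore count some reads repeatedly. A log2 value is a difference on the log2(RPKM + 1) scale with its standard error, a scale that understates changes at low levels. The words rose and fell are kept for an adjusted p below 0.05 in limma, fitted over all 21097 genes that had at least 1 RPKM in at least 3 libraries. All 29 members passed that filter. Whether replicates came from different cultures is not in the labels, and p-values cover the spread between these libraries alone. In bulk RNA, fewer cells of a type and less RNA per cell cannot be told apart.

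Low RPKM steps put the depth at 7.11 to 46.23 M reads, and libraries of a group correlated at 0.926 to 0.993, with 0 identical pairs. In 5 of the 6 day 0 libraries, chemosensory receptor genes, which these cells should not use, had a median of 3.39 to 4.93 RPKM. That median was 0.456 in the sixth (VD3 replicate 2) and 0.208 to 1.30 in the other 18 libraries. Members of a few RPKM at day 0 lie near that level, and results that use day 0 were recomputed with it subtracted. Those 5 libraries had 19219 to 20956 genes at 1 RPKM or more, and the others 11943 to 14658. Of 1485 receptor genes, 1464 passed the filter. The shares of all genes tested thus include genes with little expression outside day 0. In comparisons without day 0 they may be lower than shares of expressed genes. In comparisons that use day 0 the share called lower may instead be raised. For adipogenic day 7 against day 0, 13814 genes were called lower, or 5065 with quantile normalization. Cyp24a1, the classical VD3 target, was at 0.109 to 1.62 in the vehicle group means and 3.10 to 19.8 in the VD3 group means. The summed level of 8 adipocyte markers was 28067 to 30281 with adipogenic medium and vehicle, against 20.5 to 205 in the other vehicle libraries. The summed level of 8 osteoblast markers was 682 to 843 in osteogenic vehicle libraries and 66.5 to 77.9 at day 0. With VD3 the osteoblast sum of osteogenic day 15 was 410 to 447, against 768 to 843 with vehicle. Of 7 stromal markers, Eng (0.129 to 1.55) and Thy1 (0.0230 to 1.06) were near 0 in the group means, while Pdgfra was 70.1 to 96.0 outside adipogenic medium and 8.37 to 9.14 in it. Ptprc, a marker of blood cells, was at most 2.30 and the endothelial Pecam1 at most 0.619 in the group means. Summed, 7 blood and macrophage markers were at 13.6 to 16.5 at day 0 with vehicle, where only Csf1r and Itgam had means under 1. The sum of 5 endothelial markers was 5.89 to 7.84 there and 10.9 to 14.4 on osteogenic day 15 with vehicle. In the latter group every endothelial marker but Kdr had a mean under 1.

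The members spanned a wide range of levels. At day 0 with vehicle, Insig1 (199 ± 8.05), the lysosomal sterol carrier Npc2 (134 ± 3.80) and the lanosterol demethylase Cyp51 (67.7 ± 1.13) were highest, and Dhcr7, the last enzyme of one branch to cholesterol, was lowest at 1.84 ± 0.332. Srebf2, which encodes SREBP-2, was at 1.81 to 5.88 in the 8 group means. Summed over the 6 measured genes of the mevalonate arm, levels ran from 78.7 ± 6.02 (osteogenic day 15, VD3) to 178 ± 12.6 (adipogenic day 7, vehicle). Summed over the 10 genes of the sterol arm they ran from 211 ± 4.09 (day 0, VD3) to 483 ± 31.7 (adipogenic day 7, vehicle). The 5 efflux and LXR genes ran from 16.6 ± 2.15 on osteogenic day 15 with VD3 to 174 ± 10.5 on adipogenic day 7 with vehicle. The heat map of all members by library shows this layout.

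**Figure D1:**
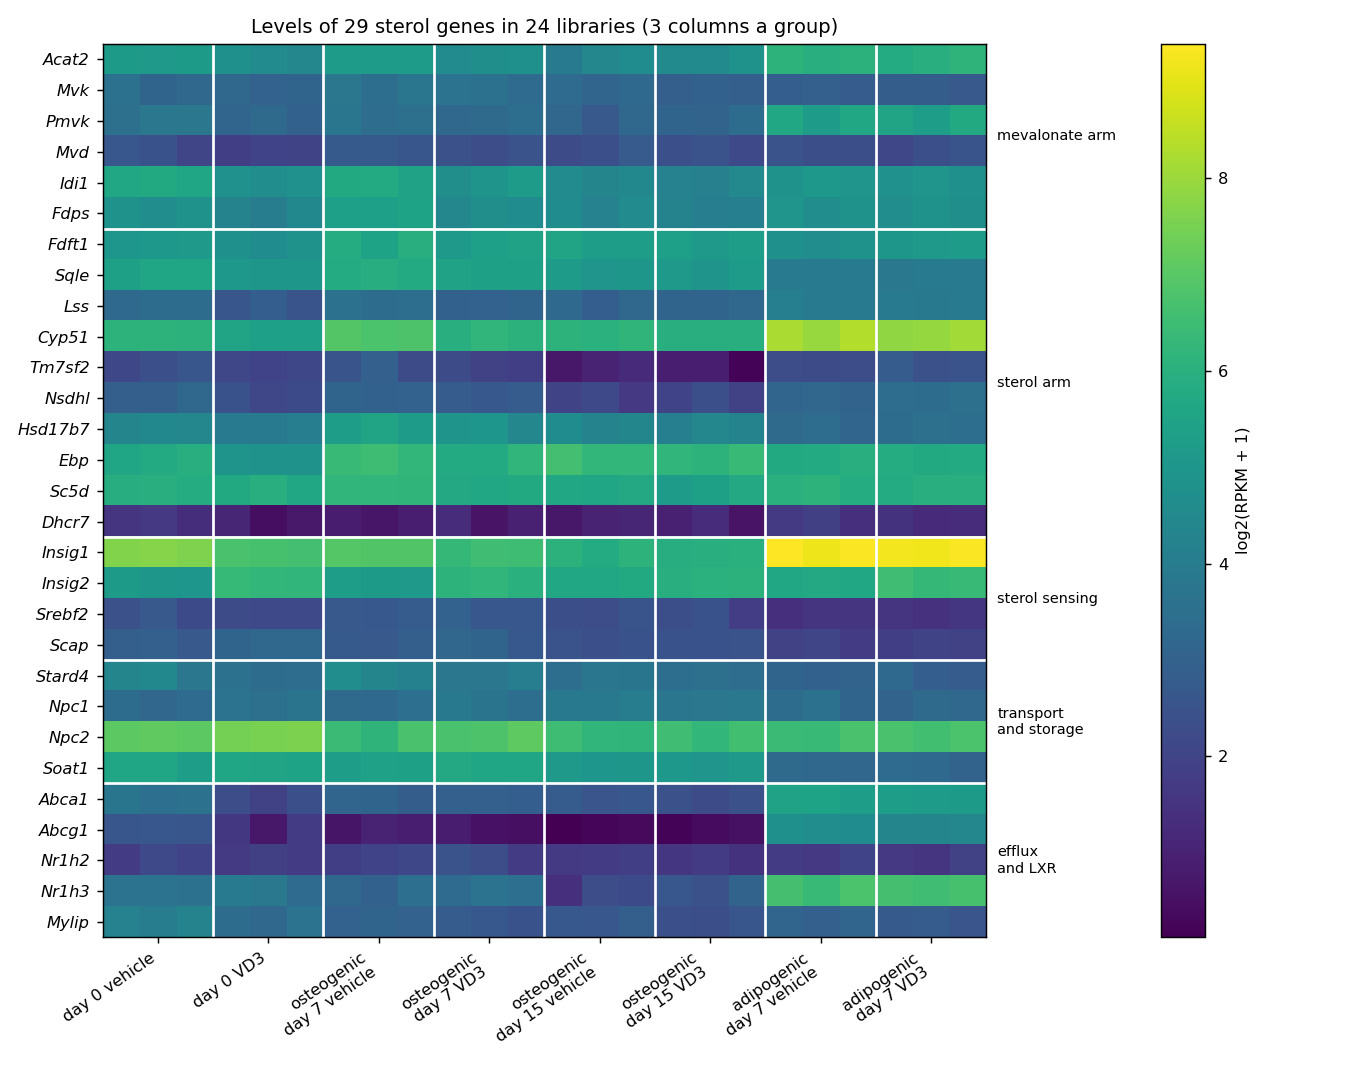
Levels of the 29 members in each of the 24 libraries, as log2(RPKM + 1), with genes in rows ordered by role and 3 libraries a group in columns. The adipogenic columns hold the highest values of Insig1, Cyp51 and Nr1h3, and the osteogenic day 15 columns hold low values of Tm7sf2, Abcg1 and Nr1h3.

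VD3 raised Insig2 in every state, though on osteogenic day 15 leaving out any 1 of the compared libraries ended the call. Insig1 and most enzymes of the route fell with VD3 at day 0. On osteogenic day 7 Insig1 and 10 of the 16 measured enzymes fell. At day 0, 2 members rose and 16 fell of 29. Over all genes tested, 3.98% rose and 11.0% fell. With median-ratio rescaling 4 members rose and 9 fell there, beside 1193 and 891 of all genes tested. Of the members, 1 rose and 11 fell on osteogenic day 7, against 2.91% and 2.35% of all genes. For osteogenic day 15 the counts were 1 higher (0.526% of all genes) and 0 lower (0.246%), and for adipogenic day 7 they were 1 higher (1.51%) and 0 lower (0.574%). At an unadjusted p under 0.05 in limma, 3 members were higher and 5 lower on osteogenic day 15, and 3 higher and 2 lower on adipogenic day 7. The share of all genes at that unadjusted threshold was not counted. Marker sums moved with VD3. At day 0 the stromal sum was 168 to 208 with vehicle and 128 to 140.0 with VD3. The osteoblast sum was 682 to 753 with vehicle and 528 to 625 with VD3 on osteogenic day 7, 768 to 843 and 410.1 to 447 on day 15, and 129 to 152 and 43.0 to 54.3 in adipogenic medium. Their part in the VD3 differences was not tested. The median log2 value of the members was -0.47, -0.29, -0.12 and -0.05 in that order of states, beside -0.27, 0.07, 0.02 and 0.05 over all genes tested. The plot of VD3 differences shows every member in the 4 states.

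**Figure D2:**
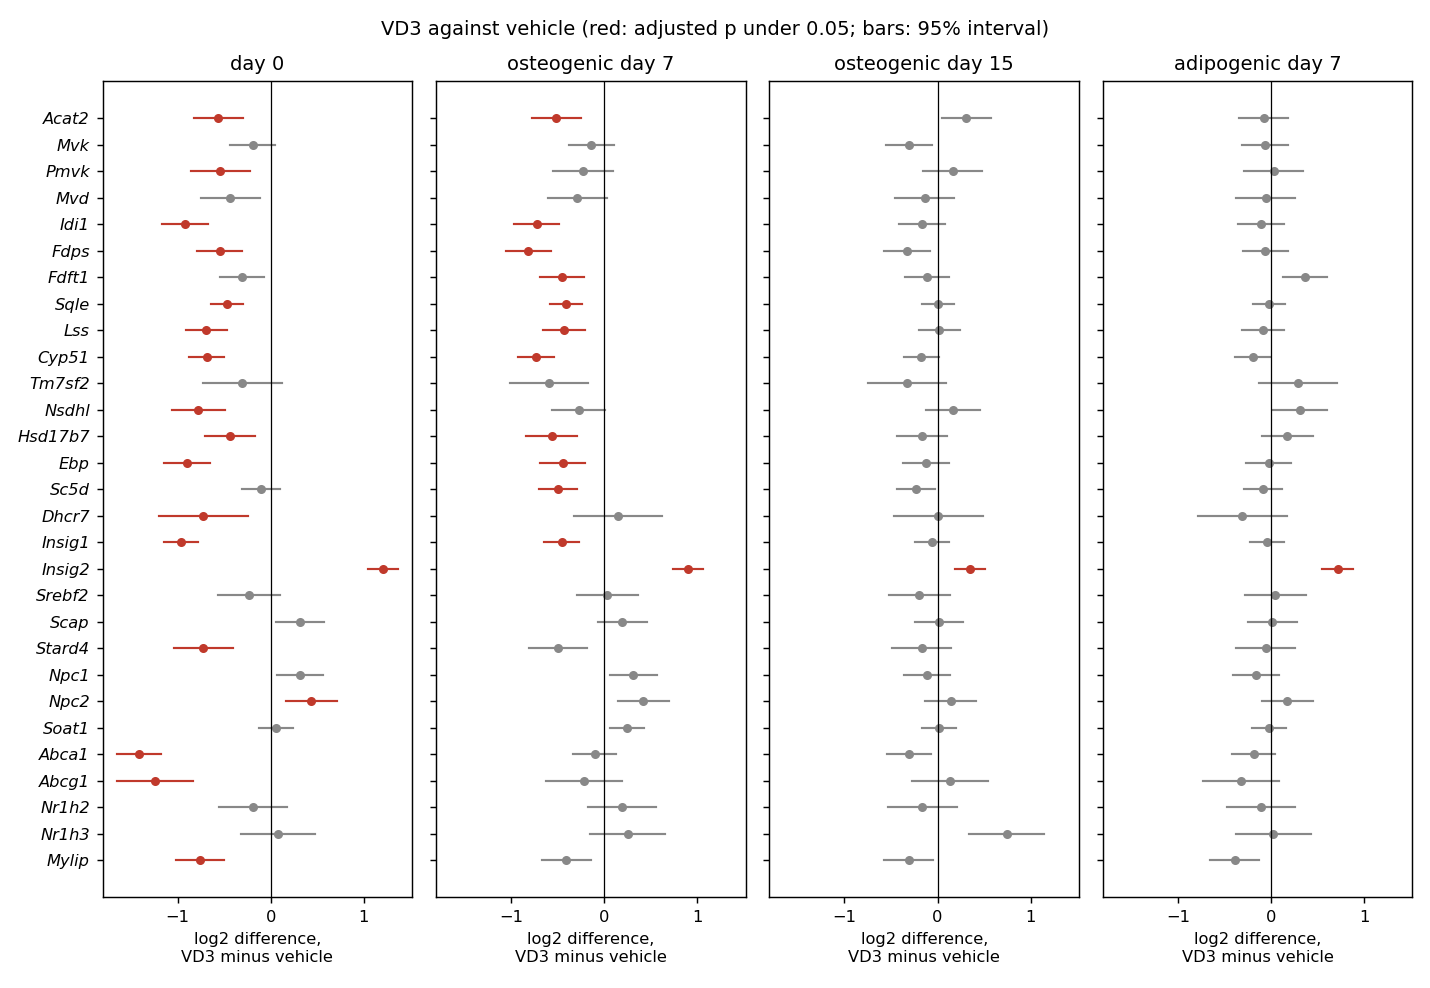
Difference between VD3 and vehicle for each member in the 4 states, on the log2(RPKM + 1) scale, with its 95% interval (bars) and red points where the adjusted p was under 0.05. Insig2 lies to the right of 0 in all panels, and most enzymes lie to the left at day 0 and on osteogenic day 7.

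Insig2 encodes the Insig protein that is made largely without SREBP. At day 0 its 3 vehicle libraries read 35.1, 31.9 and 30.8 RPKM and its VD3 libraries 80.0, 74.8 and 74.5. For osteogenic day 7 the vehicle libraries read 39.1, 35.3 and 34.2 and the VD3 libraries 68.2, 73.1 and 64.0. No VD3 library of either state overlapped a vehicle library. The rise was 1.21 ± 0.08 at day 0 (adjusted p = 2.68e-10) and 0.90 ± 0.08 on osteogenic day 7 (6.40e-08), or 2.35-fold and 1.89-fold in RPKM. On adipogenic day 7 Insig2 went from 50.0, 51.9 and 49.4 to 91.5, 78.0 and 81.4, a log2 rise of 0.72 ± 0.08 (2.36e-06). These 3 calls held under every alternative setting tried, including the subtraction. In osteogenic day 15 cells the vehicle libraries read 48.5, 50.2 and 52.3 and the VD3 libraries 60.8, 65.4 and 66.8, again without overlap, with a log2 rise of 0.35 ± 0.08 (0.0333). That call was lost when any of the 6 libraries was left out (log2 0.32 to 0.39, adjusted p 0.0549 to 0.208), with median-ratio rescaling (0.616), with the subtraction (0.0730), with plain empirical Bayes (0.122) and in a fit of only those 6 libraries (0.236). The test of the difference itself gave -0.55 ± 0.11 for osteogenic day 15 minus day 7 (adjusted p = 0.0325). Insig2 was 1 of 28 genes (0.133% of all tested) lower in that test, with 0.0521% higher. Leaving out 9 of its 12 libraries in turn ended this call (adjusted p 0.0557 to 0.131): all but the first vehicle and the third VD3 library of day 7 and the third VD3 library of day 15.

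Insig1, the Insig protein whose gene is itself driven by SREBP, moved the other way. At day 0 it read 197, 208 and 192 with vehicle and 105, 102 and 98.6 with VD3, and fell by 0.96 on the log2 scale (SE 0.09, adjusted p = 6.01e-08), under every alternative tried. For osteogenic day 7 it read 122, 116 and 118 with vehicle and 76.7, 93.3 and 89.8 with VD3 and fell by 0.46 (SE 0.09, 0.00192), with an adjusted p of 0.0903 in a fit of only those 6 libraries. On osteogenic day 15 it was 63.4 ± 6.80 with vehicle and 60.5 ± 2.63 with VD3, with a 95% interval of the log2 difference from -0.24 to 0.12. On adipogenic day 7, where Insig1 was the highest of all members, it was 629 ± 56.8 and 611 ± 37.8, with an interval from -0.22 to 0.14. The Insig1 response differed from that of osteogenic day 7 by 0.42 ± 0.13 for adipogenic day 7 (adjusted p = 0.111) and 0.40 ± 0.13 for osteogenic day 15 (0.291), and neither difference passed the test.

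The ratio of Insig2 to Insig1 in a library gives the balance of the pair. It was 0.164 ± 0.0130 at day 0 with vehicle and 0.752 ± 0.0145 with VD3, and 0.304 ± 0.0148 and 0.795 ± 0.0882 on osteogenic day 7. For osteogenic day 15 it was 0.801 ± 0.0918 with vehicle, where libraries overlapped the VD3 libraries of day 7, and 1.06 ± 0.0273 with VD3. On adipogenic day 7 it was 0.0808 ± 0.00978 and 0.137 ± 0.0143. Insig1 outweighed Insig2 in every library of the series except those of osteogenic day 15 with VD3. This ratio was chosen after the values were seen and was not tested. Insig2 is a sum of 2 rows and Insig1 has 1, so the height of the ratio depends on how reads were shared between rows.

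**Figure D3:**
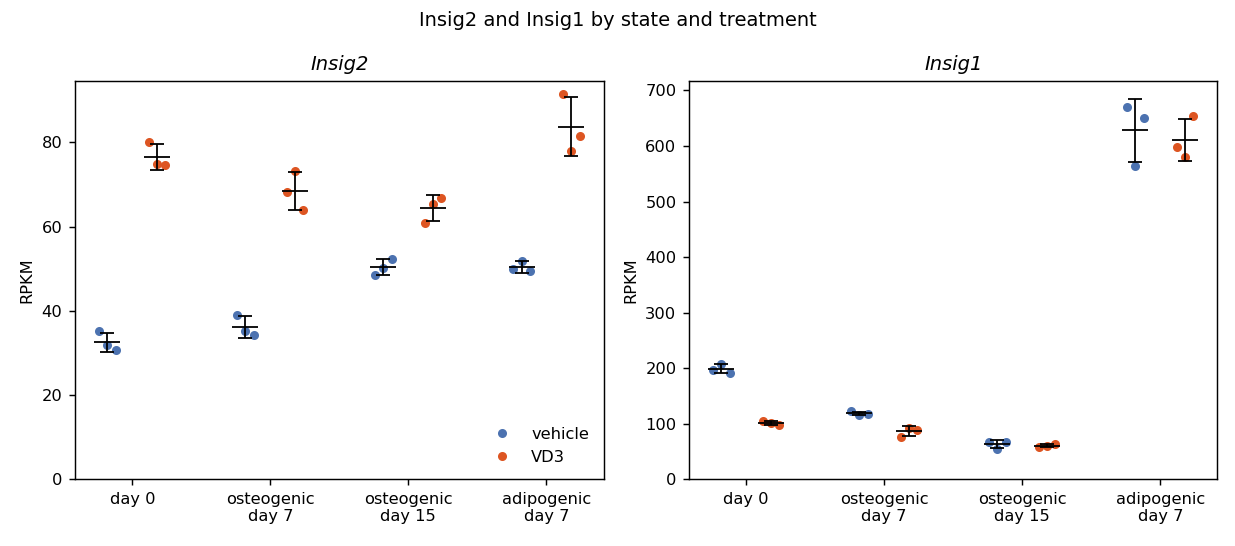
RPKM of Insig2 and Insig1 in each library by state, with vehicle in blue and VD3 in orange, points for libraries and black marks for the mean ± SD of 3. Insig2 is higher with VD3 in all 4 states, and Insig1 is lower with VD3 at day 0 and on osteogenic day 7 and highest in adipogenic medium.

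Promoter sequences of the pair and of 3 enzymes are shown because their genes moved apart or together in these comparisons. They come from a set of RefSeq promoter windows (build GRCm38.p6), and the 250 bases before each start were searched on both strands. The set used held a window for 24 of the 30 listed genes. Fdps, Fdft1, Sqle, Stard4, Npc1 and Abcg1 had none in it. Printed 5′ to 3′ on the gene's strand, the capitals mark CCAAT (bound by NF-Y, a partner of SREBP) and CACNCCAC (the core of a sterol regulatory element), each also as its reverse complement. The Insig1 stretch is chr5:28071186-28071411 on the plus strand, and that of Insig2, from the start site with the most CCAAT of its 3, is chr1:121332604-121332735 on the minus strand. Those of Idi1, Cyp51 and Hsd17b7 are chr13:8885551-8885605 (plus), chr5:4104712-4104736 (minus) and chr1:169969206-169969380 (minus). The other start sites of Insig2 held neither marked motif, and which start these cells used was not tested.
Insig1: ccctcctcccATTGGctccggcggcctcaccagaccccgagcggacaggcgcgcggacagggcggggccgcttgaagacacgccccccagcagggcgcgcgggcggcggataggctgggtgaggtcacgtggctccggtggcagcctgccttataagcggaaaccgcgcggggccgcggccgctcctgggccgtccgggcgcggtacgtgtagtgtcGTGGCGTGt
Insig2: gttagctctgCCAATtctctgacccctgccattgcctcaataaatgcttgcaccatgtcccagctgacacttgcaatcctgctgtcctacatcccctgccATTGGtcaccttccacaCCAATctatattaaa
Idi1: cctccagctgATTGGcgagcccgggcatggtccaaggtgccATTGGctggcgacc
Cyp51: ctgtccgccaCCAATctggtcctga
Hsd17b7: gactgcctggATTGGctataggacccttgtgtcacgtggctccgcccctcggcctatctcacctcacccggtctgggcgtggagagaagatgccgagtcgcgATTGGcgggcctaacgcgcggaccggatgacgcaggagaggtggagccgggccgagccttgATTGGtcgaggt

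CCAAT was present before at least 1 start site of 19 of the 24 genes (79.2%), against 37.5% of 27025 genes with such a window. GGGCGG, the Sp1 box, was present for 20 of 24 (83.3%), against 35.4%. The full sterol element TCACNCCAC was found for 1 of 24, against 1.23% of genes. That gene was Hmgcs1, which was not analysed here, so no measured member held the full element. The core CACNCCAC, contained in the full element and searched after the first result was seen, was found for 3 (Acat2, Hmgcs1 and Insig1), against 6.05%. Hmgcs1 is also within the counts of CCAAT and GGGCGG. The windows of Acat2, Abca1, Nr1h2, Nr1h3 and Scap held no CCAAT. These are matches of letters in short windows and say nothing of binding.

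In the mevalonate arm, which makes isoprenoid units from acetyl-CoA, 4 of 6 measured genes fell with VD3 at day 0 and 3 of 6 on osteogenic day 7. Over all genes tested, 11.0% and 2.35% fell. Idi1, the isomerase of isopentenyl diphosphate, read 50.6, 52.6 and 47.6 with vehicle at day 0 and 26.8, 24.4 and 27.1 with VD3, and fell by 0.92 (SE 0.12, adjusted p = 8.68e-06). For osteogenic day 7 it read 53.2, 54.6 and 42.9 against 25.0, 29.5 and 35.9 and fell by 0.73 (SE 0.12, 0.000327). Vehicle and VD3 libraries did not overlap in either state, and both calls held under every alternative tried. Fdps, the farnesyl diphosphate synthase, fell from 41.3 ± 2.77 to 23.1 ± 2.64 on osteogenic day 7 (log2 -0.81 ± 0.12, 6.95e-05), again under every alternative. At day 0 it fell from 27.1 ± 2.12 to 18.3 ± 2.67 (0.00276), with an adjusted p of 0.107 after median-ratio rescaling. Acat2, the thiolase that condenses acetyl-CoA, fell from 34.7 ± 0.925 to 23.3 ± 2.87 at day 0 (0.00439, or 0.173 after median-ratio rescaling) and from 36.4 ± 0.802 to 25.2 ± 1.52 on osteogenic day 7 (0.0154). The second Acat2 call was lost without vehicle replicate 1 (0.0619) or VD3 replicate 1 (0.0809). Pmvk, a mevalonate-pathway kinase, fell at day 0 from 12.1 ± 1.31 to 8.0 ± 1.04 (0.0217), and leaving out vehicle replicate 2 (0.0721), vehicle replicate 3 (0.0780) or VD3 replicate 3 (0.0608) ended the call, as did median-ratio rescaling, the subtraction and a fit of only those libraries. The kinase Mvk and the decarboxylase Mvd were called in none of the 4 states, with Mvd at 2.87 to 5.49 in all group means.

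In the sterol arm, which runs from squalene to cholesterol, 7 of 10 genes fell at day 0 and 7 of 10 on osteogenic day 7. The shares of all genes tested that fell were 11.0% and 2.35%. Cyp51 read 68.7, 67.8 and 66.5 with vehicle at day 0 and 45.5, 40.3 and 39.5 with VD3. For osteogenic day 7 it read 118, 108 and 109.7 against 61.2, 73.9 and 66.2. The groups did not overlap, and the log2 values of -0.69 ± 0.09 (adjusted p = 1.40e-05) and -0.73 ± 0.09 (1.11e-05) held as falls under every alternative tried. Exons of Cyp51 overlap those of Akap9 on the other strand in a mouse annotation of another build, as those of Fdft1 do with Ctsb, and whether the authors counted by strand is not given in the sources used here. Ebp, a sterol isomerase, fell at day 0 from 54.4 ± 6.07 to 28.5 ± 0.431 (log2 -0.90 ± 0.12, 1.12e-05), and Lss, which closes the sterol rings, from 9.23 ± 0.419 to 5.38 ± 0.846 (0.000111), both under every alternative. Sc5d, a sterol desaturase, fell on osteogenic day 7 from 73.8, 73.7 and 71.3 to 51.7, 50.3 and 52.4 (log2 -0.49 ± 0.10, 0.00253, under every alternative), while its day 0 levels were 58.9 ± 1.62 and 54.8 ± 5.33 (0.442).

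Sqle, the epoxidase that is a control point of the route, read 41.1, 46.1 and 46.6 with vehicle at day 0 and 32.2, 31.9 and 31.7 with VD3 (adjusted p = 0.000456, or 0.175 after median-ratio rescaling). For osteogenic day 7 it read 55.0, 58.1 and 54.2 against 43.1, 40.9 and 41.4 (0.00318, or 0.0930 in a fit of only those libraries). The Sqle groups did not overlap in either state. Nsdhl, a sterol dehydrogenase, fell at day 0 from 7.18 ± 1.07 to 3.78 ± 0.685 (0.000489, or 0.0610 in a fit of only those libraries). Hsd17b7, a sterol ketone reductase, fell at day 0 from 20.1 ± 0.804 to 14.6 ± 1.09 (0.0277) and on osteogenic day 7 from 39.7 ± 4.76 to 26.8 ± 5.52 (0.00944). Its day 0 call was lost without vehicle replicate 2 (0.0751), vehicle replicate 3 (0.0792) or VD3 replicate 2 (0.118), with median-ratio rescaling (0.292) and with the subtraction (0.0755). Its day 7 call was lost without vehicle replicate 2 (0.0791) or VD3 replicate 3 (0.0773), or with only those libraries (0.118). Fdft1, the squalene synthase, fell on osteogenic day 7 from 53.6 ± 8.57 to 38.8 ± 5.12 (0.0181), a call lost without vehicle replicate 1 (0.0904), vehicle replicate 3 (0.105) or VD3 replicate 1 (0.138), or with only those libraries (0.200).

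Ebp and Lss also fell on osteogenic day 7, from 82.9 ± 7.34 to 61.0 ± 10.7 (adjusted p = 0.0250) and from 10.2 ± 0.672 to 7.28 ± 0.341 (0.0175). The Ebp call was lost without vehicle replicate 1 or 2 (0.0755 and 0.145) or VD3 replicate 1 or 2 (0.139 and 0.110), and the Lss call without vehicle replicate 1 (0.0927) or VD3 replicate 1 (0.0769). Quantile normalization and a fit of only those libraries ended both calls, plain empirical Bayes that of Ebp and the subtraction that of Lss. Dhcr7 was called lower at day 0 (1.84 ± 0.332 against 0.744 ± 0.392, 0.0373), under the median receptor gene level of the vehicle libraries. Leaving out any day 0 library but VD3 replicate 1 ended that call (0.0514 to 0.160), as did either rescaling, a pseudocount of 0.1 and a fit of only those libraries. In every day 0 library Dhcr7 was under the median receptor gene level of that library. The subtraction therefore left it at 0 there, and no fall remained. Tm7sf2, a sterol reductase, was called in none of the 4 states. None of the 16 measured enzymes was called with VD3 on osteogenic day 15 or adipogenic day 7 in limma. There 4 and 3 of them had an unadjusted p under 0.05, without a count of all genes at that threshold. Of all genes tested, 0.526% rose and 0.246% fell with VD3 on osteogenic day 15, and 1.51% and 0.574% on adipogenic day 7.

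In the differences of VD3 response between adipogenic and osteogenic day 7, 4 members were called, all higher in adipogenic medium, beside 0.967% of all genes higher and 0.853% lower in that test. Fdft1 fell on osteogenic day 7 and read 26.4, 24.6 and 28.3 with vehicle and 32.0, 33.9 and 36.8 with VD3 on adipogenic day 7, a difference of responses of 0.81 ± 0.16 (adjusted p = 0.00673, or 0.0511 in a fit of only those 12 libraries). The response of Fdps differed by 0.75 ± 0.17 (0.0154), and the call was lost without the first VD3 library of osteogenic day 7 (0.0525) or the second vehicle (0.0605) or VD3 library (0.0533) of adipogenic day 7. The responses of Hsd17b7 (0.74 ± 0.18, 0.0378) and Cyp51 (0.54 ± 0.13, 0.0310) differed too. Their calls were lost with either rescaling, plain empirical Bayes or a fit of only those libraries, and that of Hsd17b7 with the subtraction. They were also lost without any 1 of 8 (Hsd17b7, 0.0533 to 0.123) or 6 (Cyp51, 0.0565 to 0.111) of the 12 libraries. The osteogenic libraries among these were vehicle 1, vehicle 2 and VD3 3 for Hsd17b7 and vehicle 1, VD3 1 and VD3 3 for Cyp51. The adipogenic ones were vehicle 1 and 3 and all VD3 libraries for Hsd17b7 and vehicle 2, VD3 2 and VD3 3 for Cyp51. The response of Idi1 did not pass this test (0.61 ± 0.17, 0.0660).

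In sterol transport, Stard4, which moves sterol between membranes, fell at day 0 from 17.6 ± 4.26 to 10.1 ± 0.683 (adjusted p = 0.00241, or 0.0501 after median-ratio rescaling and 0.0625 with only those libraries) and was 20.2 ± 3.51 against 14.0 ± 1.60 on osteogenic day 7 (0.0650). Npc2, which hands lysosomal cholesterol to Npc1, rose at day 0 from 132, 138 and 131 to 173, 183 and 189 (log2 0.44 ± 0.13, 0.0295). Npc2 was the one member beside Insig2 called higher with VD3, but leaving out any day 0 library except VD3 replicate 1 ended the call (0.0562 to 0.0995), as did quantile normalization (0.0731). Npc1 was 8.97 ± 0.793 against 11.4 ± 0.666 at day 0 (0.0744). Soat1, which esterifies cholesterol for storage, was not called in any state, with 40.6 ± 2.26 against 48.5 ± 3.21 on osteogenic day 7 (0.126).

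Of the 5 efflux and LXR genes, 3 fell with VD3 at day 0, against 11.0% of all genes tested. None was called in the later states, where 2.35%, 0.246% and 0.574% of all genes fell and 2.91%, 0.526% and 1.51% rose. That contrast between states was not tested. Abca1, the exporter that loads apolipoproteins with cholesterol, read 12.2, 10.4 and 11.3 with vehicle at day 0 and 3.92, 2.77 and 4.22 with VD3. Every VD3 library was under every vehicle library, and it fell by 1.42 (SE 0.11, adjusted p = 6.40e-09) under every alternative tried, the subtraction included. Abcg1, the exporter to HDL, read 5.11, 5.21 and 4.99 against 2.09, 0.633 and 2.36 and fell by 1.25 (SE 0.20, 0.000114). The lowest of these is the VD3 replicate 2 library with its low receptor gene level, and after the subtraction the Abcg1 value was -0.75 with an adjusted p of 0.0599, and 0.0972 with only those libraries. Mylip, the ubiquitin ligase that degrades lipoprotein receptors and is an LXR target, went from 17.9, 15.4 and 18.4 to 9.50, 8.34 and 11.6 and fell by 0.76 (SE 0.13, 0.000220), under every alternative. In the later states Mylip means were lower with VD3 but not called (adjusted p 0.0680, 0.634 and 0.176). The LXR genes themselves were not called with VD3 in any state: Nr1h3 was 11.4 ± 0.420 and 12.3 ± 2.59 at day 0, and Nr1h2 2.93 ± 0.617 and 2.42 ± 0.213. For osteogenic day 15 Nr1h3 was 3.06 ± 1.23 with vehicle and 5.68 ± 1.53 with VD3 (0.0949), with no overlap of libraries.

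Adipogenic and osteogenic medium at day 7 split the route, with some enzymes several-fold apart in each direction. With vehicle, 10 members were higher and 11 lower in adipogenic medium, against 12.4% and 25.4% of all genes tested. Higher genes made 32.9% of all calls, or 45.9% under median-ratio rescaling and 43.6% under quantile normalization. The members' median was -0.18, beside 0.02 over all genes. Marker sums moved with it: beside the adipocyte sum given above, the osteoblast sum was 129 to 152 in adipogenic and 682 to 753 in osteogenic vehicle libraries. The sum of the 7 stromal markers was 25.6 to 29.9 against 188 to 212. The part of these cell types in the comparison was not tested. The plot of the 2 comparisons within differentiated vehicle libraries shows each member.

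**Figure D4:**
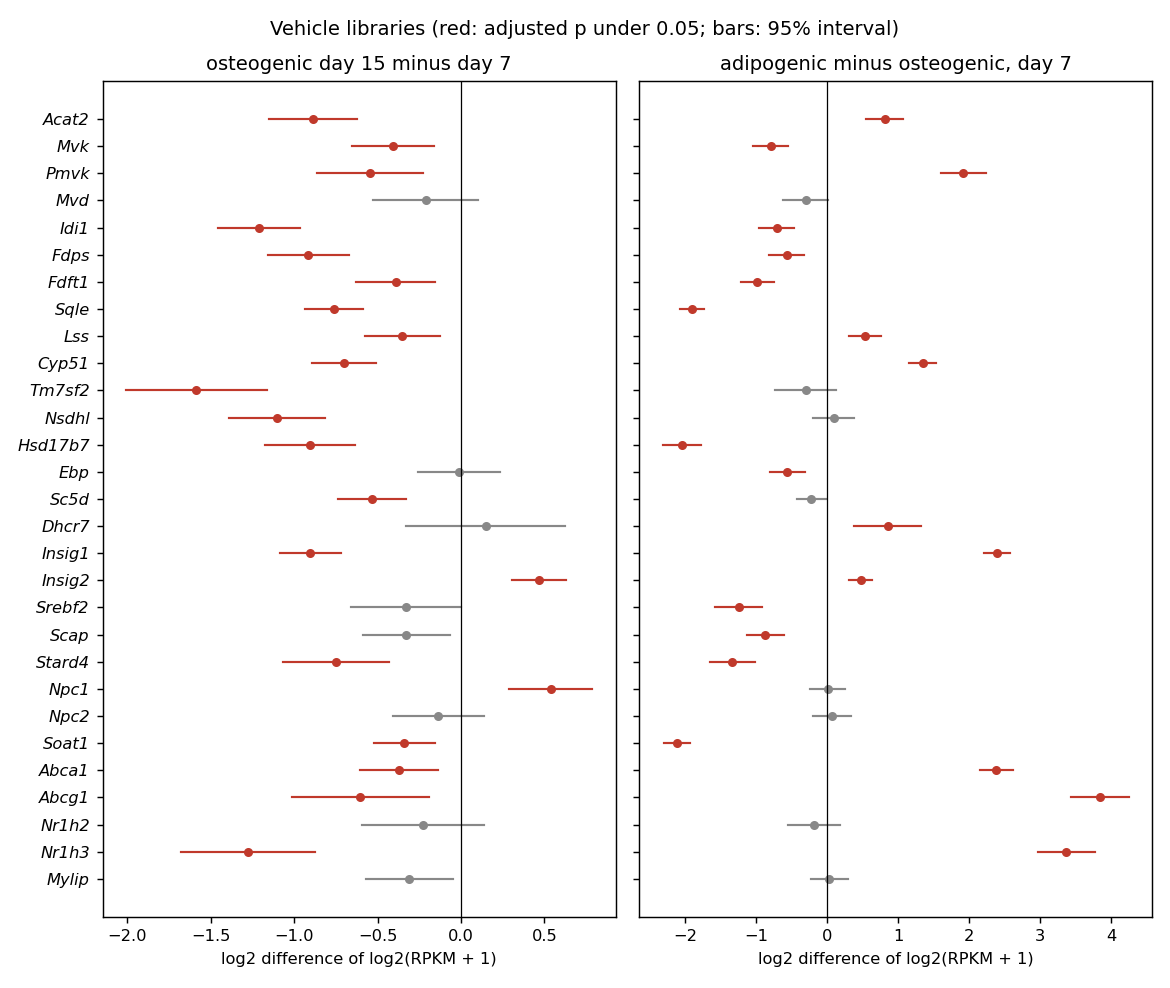
Differences between vehicle groups for each member on the log2(RPKM + 1) scale, for osteogenic day 15 minus day 7 and adipogenic minus osteogenic day 7, with 95% intervals and red where the adjusted p was under 0.05. Most members lie to the left of 0 in the first comparison and spread to both sides in the second.

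Among the enzymes, Pmvk, Cyp51 and Acat2 were higher in adipogenic medium. Pmvk read 12.5, 9.84 and 10.8 in osteogenic and 48.8, 35.7 and 49.9 in adipogenic medium, a log2 rise of 1.92 ± 0.15 (adjusted p = 3.64e-10). Cyp51 read 118, 108 and 109.7 against 295, 249 and 316, a rise of 1.34 ± 0.09 (2.21e-11), and Acat2 rose from 36.4 ± 0.802 to 64.6 ± 3.97 (1.28e-05). None of these groups overlapped, and these calls held under every alternative tried, VD3-treated libraries included. Lss rose from 10.2 ± 0.672 to 15.1 ± 1.20 (0.000338, or 0.172 after the subtraction), and Dhcr7 from 0.739 ± 0.130 to 2.16 ± 0.543 (0.00425, or 0.208 among VD3-treated libraries).

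The enzymes lower in adipogenic medium included those on both sides of squalene. Sqle read 55.0, 58.1 and 54.2 in osteogenic and 14.5, 14.3 and 13.8 in adipogenic medium and fell by 1.90 (SE 0.08, adjusted p = 8.43e-15). Hsd17b7 read 38.3, 45.1 and 35.9 against 8.95, 9.82 and 7.81 and fell by 2.05 (SE 0.13, 6.98e-12), and Mvk fell from 11.8 ± 1.42 to 6.36 ± 0.376 (6.92e-06). These 3 calls held under every alternative. Idi1 (50.2 ± 6.42 to 30.2 ± 2.22), Fdft1 (53.6 ± 8.57 to 26.4 ± 1.88), Fdps (41.3 ± 2.77 to 27.5 ± 3.12) and Ebp (82.9 ± 7.34 to 55.7 ± 3.35) also fell. Among VD3-treated libraries, however, the differences of Idi1, Fdft1 and Ebp were -0.10, -0.17 and -0.14 and not called (adjusted p 0.586, 0.288 and 0.396), and that of Fdps was 0.18 in the other direction (0.268). Ebp was also not called after median-ratio rescaling (0.0662). Nsdhl (7.29 ± 0.263 and 7.83 ± 0.335), Sc5d, Tm7sf2 and Mvd were not called.

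The sensing genes split in the same way. Insig1 read 122, 116 and 118 in osteogenic and 671, 564 and 651 in adipogenic medium, a 5.29-fold rise (log2 2.39 ± 0.09, adjusted p = 4.35e-16). Insig2 rose from 36.2 ± 2.57 to 50.4 ± 1.34 (2.98e-05). Srebf2 read 5.58, 5.39 and 6.0 in osteogenic and 1.58, 1.88 and 1.96 in adipogenic medium and fell by 1.25 (SE 0.16, 6.83e-07), and Scap fell from 5.89 ± 0.546 to 2.77 ± 0.388 (3.80e-06). These 4 calls against osteogenic day 7 held under every alternative.

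The exporters and the gene of LXRα rose in adipogenic medium, while Soat1 and the carrier gene Stard4 fell. Nr1h3 read 8.43, 7.05 and 10.3 in osteogenic and 99.4, 84.6 and 108 in adipogenic medium, an 11.3-fold rise (log2 3.37 ± 0.19, adjusted p = 1.14e-12). Abca1 rose from 7.84, 7.62 and 6.30 to 42.6, 44.2 and 38.8 (log2 2.38 ± 0.11, 3.20e-14) and Abcg1 from 0.545, 1.03 and 0.848 to 26.6, 24.3 and 23.5 (log2 3.84 ± 0.20, 1.35e-13). Nr1h2 (2.98 ± 0.387 and 2.51 ± 0.439) and Mylip (7.35 ± 0.297 and 7.53 ± 0.560) were not called. Soat1 read 38.0, 42.3 and 41.4 against 9.05, 8.61 and 8.12 and fell by 2.12 (SE 0.09, 3.70e-15), and Stard4 fell from 20.2 ± 3.51 to 7.30 ± 0.294 (1.25e-07). The 5 calls of this paragraph held under every alternative. Npc1 and Npc2 were not called with vehicle, with Npc1 at -0.47 among VD3-treated libraries (adjusted p = 0.00264).

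**Figure D5:**
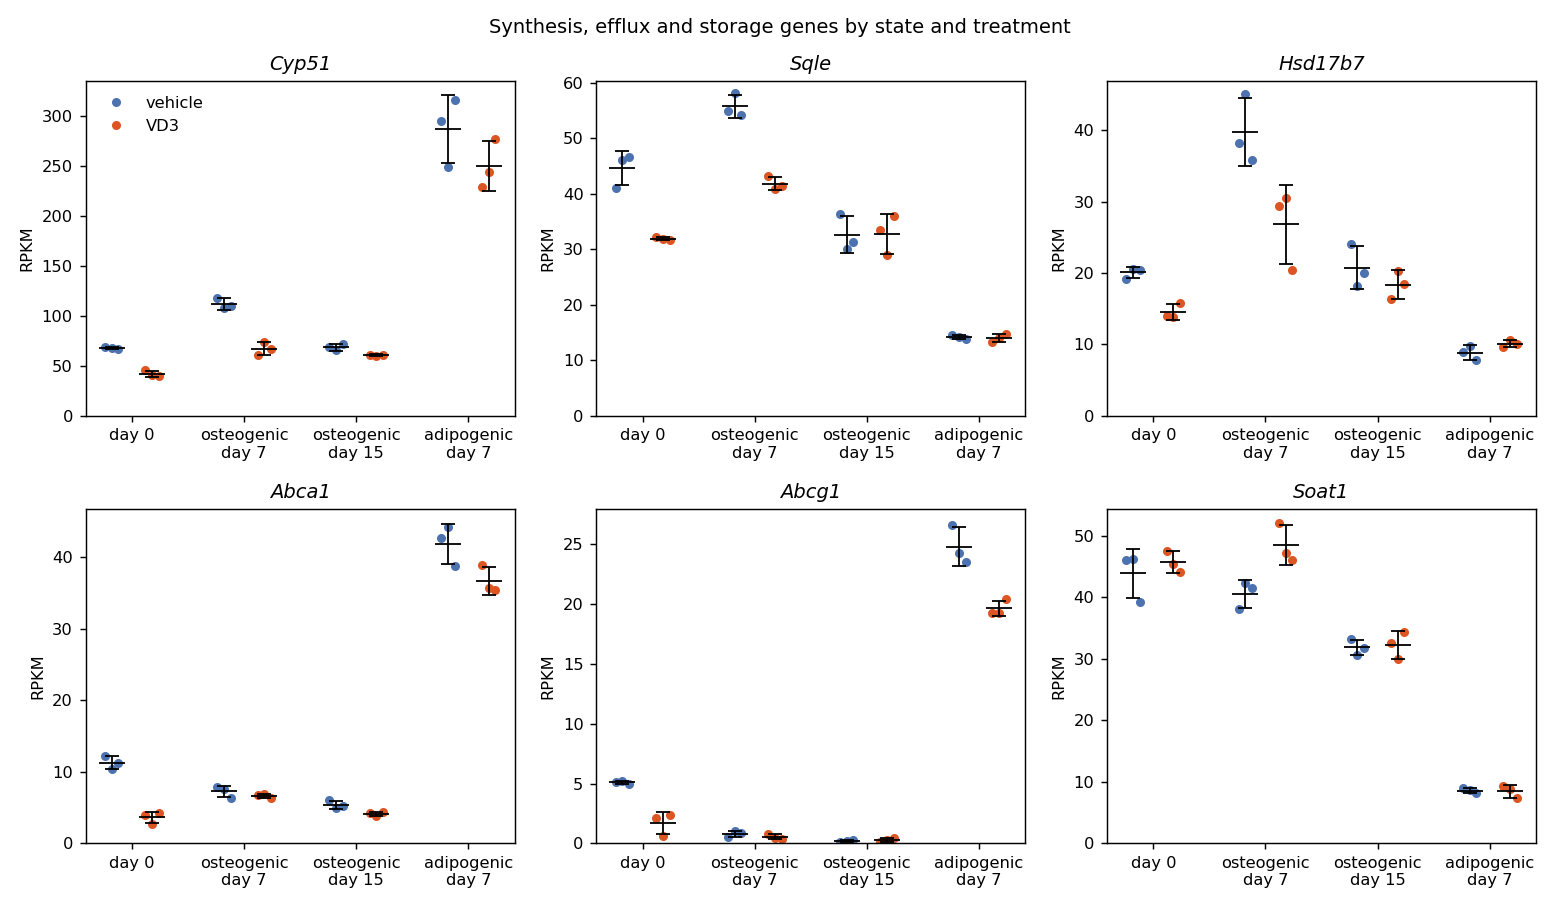
RPKM of 3 enzymes (Cyp51, Sqle, Hsd17b7), 2 exporters (Abca1, Abcg1) and the storage enzyme Soat1 in each library by state, with vehicle in blue and VD3 in orange and black marks for the mean ± SD of 3. Cyp51, Abca1 and Abcg1 are highest, and Sqle, Hsd17b7 and Soat1 lowest, on adipogenic day 7.

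Between days 7 and 15 of osteogenic medium most of the route went down. With vehicle, 19 members were lower and 2 higher on day 15, against 6.47% and 6.87% of all genes tested. The members' median was -0.41, beside 0 over all genes. Higher genes made 51.5% of all calls, or 41.5% after median-ratio rescaling. The vehicle libraries of osteogenic day 7 also serve the VD3 comparison and the comparison of media, so these comparisons share them. The VD3-treated libraries of both days were compared as an alternative. Marker sums moved with this comparison: from day 7 to day 15 the adipocyte sum was 66.5 to 71.5 and then 20.5 to 23.4, the endothelial sum 3.18 to 3.69 and then 10.9 to 14.4, and the stromal sum 188 to 212 and then 151 to 155. Their part in it was not tested. On both days every endothelial marker but Kdr had a group mean under 1 RPKM with vehicle.

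Calls on day 15 that held under every alternative, VD3-treated libraries included, were 8 falls: Idi1, Fdps, Sqle, Tm7sf2, Nsdhl, Hsd17b7, Insig1 and Nr1h3. Idi1 read 53.2, 54.6 and 42.9 on day 7 and 23.3, 19.1 and 20.7 on day 15 and fell by 1.21 (SE 0.12, adjusted p = 1.68e-07). Tm7sf2 read 4.71, 6.85 and 3.85 against 0.657, 1.03 and 1.39 (log2 -1.59 ± 0.20, 7.46e-06), and Nsdhl 7.55, 7.03 and 7.29 against 3.07, 3.46 and 2.16 (log2 -1.10 ± 0.14, 5.78e-06). Exons of Tm7sf2 overlap those of Vps51 on the same strand in the annotation, so its reads may be shared. Fdps fell from 41.3 ± 2.77 to 21.5 ± 3.11 (6.92e-06), Sqle from 55.8 ± 2.05 to 32.6 ± 3.33 (8.60e-07) and Hsd17b7 from 39.7 ± 4.76 to 20.8 ± 2.98 (3.13e-05). Insig1 read 122, 116 and 118 on day 7 and 66.7, 55.5 and 67.8 on day 15 and fell by 0.90 (SE 0.09, 1.85e-07). Nr1h3 read 8.43, 7.05 and 10.3 against 1.67, 3.97 and 3.55 (log2 -1.28 ± 0.19, 6.23e-05). No library of day 15 overlapped day 7 for these genes, which were picked by their calls, so this adds no separate support.

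Cyp51 fell on day 15 from 112 ± 5.63 to 68.4 ± 3.27 (adjusted p = 8.98e-06), Acat2 from 36.4 ± 0.802 to 19.5 ± 4.47 (2.82e-05), Sc5d from 72.9 ± 1.43 to 50.0 ± 2.20 (0.000533) and Stard4 from 20.2 ± 3.51 to 11.6 ± 1.40 (0.00143). Among VD3-treated libraries these 4 were not called (0.390, 0.909, 0.0657 and 0.0603). Insig2 rose with vehicle from 36.2 ± 2.57 to 50.4 ± 1.90 (0.000196), but with VD3 its difference was -0.09 in the other direction (0.633). Npc1 rose from 9.37 ± 0.807 to 14.1 ± 0.795 (0.00317), with 0.11 among VD3-treated libraries (0.740). Ebp was not called (82.9 ± 7.34 and 82.7 ± 12.9, interval of the log2 difference from -0.26 to 0.23).

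The other 7 falls on day 15 were of 0.34 to 0.60 on the log2 scale and lost their call without some single libraries, with log2 values that stayed negative. Abcg1 had the largest of these and the lowest levels (0.809 ± 0.247 to 0.187 ± 0.0955). Leaving 1 library out ended the calls of Mvk (adjusted p 0.0529 to 0.124 without vehicle replicate 1 or 3 of day 7 or 2 or 3 of day 15), Pmvk (0.0937 without replicate 1 of day 7, 0.146 without replicate 2 of day 15) and Fdft1 (0.0881 to 0.142 without replicate 1 or 3 of day 7 or 2 or 3 of day 15). The same held for Lss (0.0716 to 0.236 without replicate 1 or 3 of day 7 or 2 of day 15), Soat1 (0.0524 and 0.0528 without replicate 2 of either day), Abca1 (0.0937 to 0.137 without replicate 1 or 2 of day 7 or 2 or 3 of day 15) and Abcg1 (0.0680 to 0.178 without any but replicate 1 of day 7). Among VD3-treated libraries Mvk (adjusted p = 0.00122), Soat1 (6.15e-05) and Abca1 (0.000788) were called lower too, Pmvk, Fdft1 and Abcg1 were not called, and Lss was at 0.10, in the other direction (0.732).

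Against undifferentiated cells, the comparisons carry the receptor gene level of the day 0 libraries. All vehicle libraries of day 0 had it, so it cannot be told apart from the state in these comparisons, and members called after its subtraction are named first. Rescaling moved the median of all genes by 0.25 to 0.77 in these 3 comparisons and by 0.16 to 0.29 for VD3 at day 0. Higher genes made 21.3, 24.7 and 16.7% of all calls on osteogenic day 7, osteogenic day 15 and adipogenic day 7, or 39.6, 37.3 and 33.2% under median-ratio rescaling and 59.4, 58.6 and 51.0% under quantile normalization. For VD3 at day 0 the share was 26.5%, or 57.2 and 57.7%, and on osteogenic day 7 it was 55.3%, or 38.8% with median-ratio rescaling. For VD3 on osteogenic day 15 it was 68.1%, or 83.0% with median-ratio rescaling.

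By osteogenic day 7, 8 members were higher and 6 lower than at day 0, against 13.6% and 50.4% of all genes, with a members' median of 0.07 and -0.46 over all genes. The split was 19 higher and 3 lower with median-ratio rescaling, beside 5772 and 8799 of all genes tested. With the subtraction it was 18 and 3, without a count of all genes. The enzymes Fdps (27.1 ± 2.12 to 41.3 ± 2.77, adjusted p = 0.000222), Fdft1 (32.4 ± 1.27 to 53.6 ± 8.57, 4.85e-05), Cyp51 (67.7 ± 1.13 to 112 ± 5.63, 4.22e-06), Hsd17b7 (20.1 ± 0.804 to 39.7 ± 4.76, 1.04e-05) and Ebp (54.4 ± 6.07 to 82.9 ± 7.34, 0.000202) rose under every alternative, and Mylip fell (17.2 ± 1.62 to 7.35 ± 0.297, 7.64e-07). Insig1 fell by 0.74 (SE 0.09, 1.94e-06) with vehicle and was not called with the VD3 replicate 2 library as the lone day 0 library. That fit compares VD3-treated libraries, where Insig1 was 102 ± 3.00 at day 0 and 86.6 ± 8.73 on osteogenic day 7.

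By osteogenic day 15, 4 members were higher and 18 lower, against 17.5% and 53.4% of all genes, with medians of -0.44 and -0.55. The split was 10 higher and 9 lower with the subtraction, without a count of all genes. With median-ratio rescaling it was 6 and 10, beside 5609 and 9429 of all genes tested. Under every alternative Ebp rose (54.4 ± 6.07 to 82.7 ± 12.9, adjusted p = 0.000185), and Insig1 (199 ± 8.05 to 63.4 ± 6.80, 2.53e-12), Npc2 (134 ± 3.80 to 78.8 ± 9.54, 4.88e-05), Nr1h3 (11.4 ± 0.420 to 3.06 ± 1.23, 5.82e-07) and Mylip (17.2 ± 1.62 to 5.76 ± 0.801, 8.96e-09) fell. Idi1 fell from 50.3 ± 2.52 to 21.1 ± 2.10 (3.87e-08), but was not called with VD3 replicate 2 as the lone day 0 library. That fit compares VD3-treated libraries, where Idi1 was 26.1 ± 1.48 at day 0 and 18.7 ± 2.41 on osteogenic day 15. It is thus not a repeat of the vehicle comparison.

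By adipogenic day 7, 9 members were higher and 11 lower than at day 0, against 13.2% and 65.5% of all genes, with medians of 0.02 and -0.83. The members' split was 16 higher and 7 lower under median-ratio rescaling, beside 5030 and 10120 of all genes tested. It was 15 and 8 when quantiles were normalized, beside 5273 and 5065. After the subtraction it was 14 and 7, without a count of all genes. Under every alternative 8 rose: Nr1h3 (11.4 ± 0.420 to 97.4 ± 11.9, adjusted p = 1.18e-11), Abcg1 (5.10 ± 0.111 to 24.8 ± 1.63, 7.38e-09), Cyp51 (67.7 ± 1.13 to 286 ± 34.0, 1.41e-14), Pmvk, Abca1, Insig1, Acat2 and Lss. Soat1 (43.9 ± 3.99 to 8.59 ± 0.470, 2.16e-15), Sqle (44.6 ± 3.04 to 14.2 ± 0.323, 2.89e-13) and Mylip fell under every alternative. Srebf2 (4.51 ± 0.995 to 1.81 ± 0.203) and Scap were called lower, but after the subtraction Srebf2 turned to 0.45 (0.369) and Scap to 0.05 (0.906), and quantile normalization turned Srebf2 to 0.03.

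Other genes of the route formed a list of 37 tested genes outside the members. With VD3, 2 rose and 7 fell at day 0 (3.98% and 11.0% of all genes), 2 and 4 on osteogenic day 7 (2.91% and 2.35%) and 0 and 1 on adipogenic day 7 (1.51% and 0.574%). At an unadjusted p under 0.05 in limma, 2 were higher and 3 lower on adipogenic day 7. None was called on osteogenic day 15, with 1 at an unadjusted p under 0.05. The share of all genes at the unadjusted threshold was not counted. Sc4mol, the sterol methyl oxidase that acts after Cyp51, fell from 253 ± 24.3 with vehicle to 158 ± 27.2 with VD3 on osteogenic day 7 (log2 -0.69 ± 0.12, adjusted p = 0.000460), and its response differed from that in adipogenic medium by 0.70 ± 0.16 (0.0247). Cav1, a sterol-binding protein of membrane pits, fell at day 0 by 0.74 (0.00427) and on osteogenic day 7 by 0.62 (0.0284). Nus1, which takes part in making dolichol from farnesyl diphosphate, fell on adipogenic day 7 from 77.3 ± 4.56 to 60.6 ± 6.70 (0.0370).

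Between media at day 7, 13 of these genes were higher and 16 lower in adipogenic medium (12.4% and 25.4% of all genes). The oxysterol-making hydroxylase Cyp27a1 rose from 1.09 ± 0.199 to 11.0 ± 0.943 (adjusted p = 8.19e-11), Acss2, which makes acetyl-CoA from acetate, from 3.97 ± 0.808 to 24.3 ± 1.33 (2.96e-12) and the lipoprotein receptor Vldlr from 5.37 ± 0.192 to 28.6 ± 1.17 (1.31e-09). Ch25h, another oxysterol-making hydroxylase, fell from 10.9 ± 0.646 to 0.391 ± 0.323 (1.33e-11), and Cyp7b1, which breaks oxysterols down, fell by 2.21 (3.79e-07). From osteogenic day 7 to 15, 4 rose and 13 fell (6.87% and 6.47%). Against day 0, 8 rose and 7 fell on osteogenic day 7 (13.6% and 50.4%), 10 and 12 on osteogenic day 15 (17.5% and 53.4%) and 14 and 15 on adipogenic day 7 (13.2% and 65.5%).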

How the data were processed

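The authors deposited 1 table of RPKM per library, with a value for each of 30795 transcript rows. Reads were aligned to mm9 with TopHat per the submitters' processing notes, with no version. The tool that made RPKM, the annotation, filters and strand settings are not given in the sources used here, nor are read counts. Rows were summed by symbol, after 40 rows whose symbols had become dates were left out. Of the members, 6 had several rows. Depth was estimated from the steps between low RPKM values.

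The values log2(RPKM + 1) were compared in limma 3.58.1 (run under R 4.3.3) by 1 model of 8 groups over 24 libraries. Its empirical Bayes step was robust and allowed a trend of variance with level. Adjustment was by Benjamini-Hochberg over 21097 genes in each of 11 comparisons, at a threshold of 0.05. The test was tested on simulated data. Tables and figures used Python 3.11.15, pandas 2.3.3 and matplotlib 3.10.9.

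All members are described by role, and of the other genes of the route at most 3 called genes in each direction of a comparison were named. Members, lists and roles were chosen with earlier results of these data known. Overlap of libraries is described for single members and was not counted over all genes. Alternatives were no filter or one at 5 RPKM, 0.1 as the pseudocount, median-ratio rescaling, quantile normalization, subtraction of the median receptor gene level, the largest transcript, a replicate term, plain empirical Bayes, only the libraries compared, VD3-treated libraries, the same with VD3 replicate 2 as the lone day 0 library, and each library left out. The spread of a lone library is taken from that of other groups. Overlaps of exons came from GENCODE M21 and promoters from RefSeq, both on another build than the values. Some genes of the route go unreported here but are within the counts.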

Additional observations from a re-analysis of the deposited data

Results flagged for a closer look

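For 4 enzymes the VD3 response differed between adipogenic and osteogenic day 7 in the test of the difference itself (limma, adjusted over all genes). The log2 differences, adipogenic minus osteogenic, were 0.75 for Fdps, 0.81 for Fdft1, 0.54 for Cyp51 and 0.74 for Hsd17b7. Fdft1 was the one of these whose call held without each of the 12 libraries. The Insig2 response differed between osteogenic days, by -0.55 for day 15 minus day 7, with lower levels with vehicle on day 7 (36.2 ± 2.57) than on day 15 (50.4 ± 1.90) and close levels with VD3 (68.4 ± 4.57 and 64.4 ± 3.14).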

How the results depend on the processing

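Of 5651 member results under alternatives, 5099 kept their direction and side of the threshold, 229 lost a call and 99 gained one in the same direction. Sign changed in 59 that were called in 1 or both of the fits, most of them against day 0, and in 165 that were called in neither. These totals include the fits of VD3-treated libraries. Such fits compare other libraries under another treatment, rather than process the same libraries in another way. Counts of members called moved as follows. On osteogenic day 7 against day 0 the count of 14 was 22 with median-ratio rescaling and 9 with day 0 VD3 replicate 2 alone, and on osteogenic day 15 the count of 22 was 12 with that library. For VD3 on osteogenic day 7 the count of 12 was 6 with only the libraries compared. For VD3 on osteogenic day 15 the count of 1 was 0 with median-ratio rescaling, subtraction, plain empirical Bayes or only the libraries compared, and 0 to 1 with 1 library left out. On adipogenic day 7 it was 2 with median-ratio rescaling or quantile normalization. For the response of adipogenic minus osteogenic day 7 the count of 4 was 2 with either of these or plain empirical Bayes, 1 with only the libraries compared, and 1 to 5 with 1 library left out. For osteogenic day 15 minus day 7 the count of 1 was 3 with the filter at 5 RPKM, 2 with quantile normalization, 0 with median-ratio rescaling, subtraction, plain empirical Bayes or only the libraries compared, and 0 to 1 with 1 library left out. The causes were not tested.

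Log2 values that changed sign with a call in 1 or both of the fits were these. For osteogenic day 7 against day 0 they were Idi1 0.36 and Soat1 0.26 (median-ratio), Dhcr7 0.47 (quantile), Scap 1.18 (subtraction). Also Sc5d -0.085, Dhcr7 0.17 and Abca1 0.74 (VD3-treated), Sc5d -0.23, Dhcr7 0.48 and Abca1 1.02 (VD3 replicate 2 alone) changed there. For osteogenic day 15 against day 0 they were Fdps 0.0033 and Sc5d 0.10 (median-ratio), Dhcr7 0.61, Srebf2 0.69, Scap 0.033 and Nr1h2 0.85 (quantile), Mvk 0.70, Tm7sf2 0.41, Srebf2 1.71, Scap 0.83 and Nr1h2 1.61 (subtraction). Also Acat2 0.051, Pmvk 0.035, Sqle 0.032, Lss 0.48, Dhcr7 0.18, Insig2 -0.24, Stard4 0.0076 and Abca1 0.16 (VD3-treated), Acat2 0.048, Fdps 0.089, Sqle 0.033, Nsdhl 0.038, Dhcr7 0.48, Insig2 -0.21, Stard4 0.074 and Abca1 0.45 (VD3 replicate 2 alone) changed there. For adipogenic day 7 against day 0 they were Mvk 0.073, Fdft1 0.28 and Npc2 0.018 (median-ratio), Tm7sf2 0.95, Srebf2 0.027 and Nr1h2 1.05 (quantile), Mvk 0.21, Tm7sf2 1.72, Srebf2 0.45, Scap 0.054 and Nr1h2 1.46 (subtraction). Also Idi1 0.090, Fdft1 0.38, Tm7sf2 0.51 and Npc1 -0.41 (VD3-treated), Idi1 0.18 and Fdft1 0.51 (VD3 replicate 2 alone) changed there. For osteogenic day 15 against day 7 they were Lss 0.100 and Insig2 -0.086 (VD3-treated). For adipogenic against osteogenic day 7 they were Fdps 0.18, Tm7sf2 0.58 and Npc1 -0.47 (VD3-treated).

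Groups shared replicate numbers, but same-numbered libraries did not deviate together in every pair (correlations -0.0945 to 0.166), so they were not treated as paired. With the replicate block the counts of members called were 14, 22, 20, 20 and 21 for the 5 vehicle comparisons, 19, 13, 1 and 1 for VD3 in the 4 states and 4 and 1 for the differences. Depth limits members near 0: 3 reads on 1 kilobase were 0.0649 to 0.422 RPKM.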
